A study of Homo sapiens with 7 samples.

Results

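The genes described here encode the histone variants and variant linker histones that are made from polyadenylated messages. They are 9 of the 62238 genes in the RNA-seq count files, chosen by symbol: H2AFZ and H2AFV (H2A.Z), H2AFY and H2AFY2 (macroH2A), H2AFX (H2A.X), H3F3A and H3F3B (H3.3), and H1F0 and H1FX (linker histones H1.0 and H1.X). All 9 symbols were matched to an Ensembl gene identifier, and the genes hold 156 of the 625148 exon bins, the non-overlapping pieces into which the annotated exons of a gene are divided. The cells were MEG-01, an established human megakaryoblastic leukemia line, grown in RPMI1640 with 10% serum and harvested at passage 5 in exponential phase. The labels describe all libraries as carrying lentiviral transgenes. RNA-seq was done on 1 control library, 1 library of a line with RBM15 knocked down by shRBM15#1 and 1 of a line with shRBM15#2, so the 2 knockdown lines differ in their shRNA and the control has no replicate. The vector in the control is not named in the labels. For the RIP-seq, RNA bound by RBM15 was immunoprecipitated from MEG-01 cells, and of the 4 libraries, 1 of normal IgG and 1 of anti-RBM15 could be placed in a condition.

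Nucleosomes that hold a variant differ from those assembled at replication. H2A.Z marks promoters and other regulatory regions and is exchanged by SRCAP and EP400 complexes. H2A.X is phosphorylated at DNA breaks. H3.3 is laid down outside replication by the HIRA and DAXX-ATRX chaperones. MacroH2A carries a large globular macro domain, is abundant on the inactive X chromosome and holds back transcription at many genes. The H2AFY transcript contains a pair of mutually exclusive exons, which give macroH2A1.1, whose macro domain binds ADP-ribose, or macroH2A1.2, whose macro domain does not. Linker histones bind where DNA enters and leaves the nucleosome, and H1.0 accumulates in cells that stop dividing. RBM15 is an RNA-binding protein of the spen family.

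The splice junctions of the mutually exclusive exons of H2AFY are shown because they mark where the isoforms part. They were read from GRCh37 on the minus strand of chromosome 5, with exon letters in capitals and intron letters in lower case. The macroH2A1.1 exon (chr5:134686513-134686603, 91 bases) and the macroH2A1.2 exon (chr5:134688636-134688735, 100 bases) are both coding exons.
macroH2A1.2 acceptor: tgcttttctttgcagCTGAACCTTATTCAC
macroH2A1.2 donor: TTAAAGATGACCTAGgtaattggggacggg
macroH2A1.1 acceptor: gtttacctgttatagTTGCAAGTTGTACAG
macroH2A1.1 donor: TCGGTGGTGAAGTAGgtaatgcctagccgg
Both exons are flanked by AG and GT at the intron ends, and the macroH2A1.2 exon lies upstream in the transcript.

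Counts on exon bins summed to between 41629454 and 53230029 per RNA-seq library. The shRBM15#1 library stood apart from the others: 32.0% of its counts were on lines naming no bin, against 23.2% in the control and 23.5% in shRBM15#2. It had a count in 473473 bins against 410882 and 445666. These percentages are not shares of reads outside exons, since a read over several bins is counted in each. RBM15 itself had 80.2 CPM (counts per 1000000 counts of the TMM-scaled library) in the control, 43.7 in shRBM15#1 and 40.7 in shRBM15#2, which is 54.5% and 50.7% of the control (log2 fold change -0.93 ± 0.23, SE; edgeR adjusted p = 0.091). Of 9 megakaryocyte and erythroid markers, 7 had at least 5 CPM in every library and GP9 and PF4 stayed below 1 CPM, with a sum of 1481 CPM in the control, 1235 in shRBM15#1 and 1482 in shRBM15#2. The sum hides values that lay in opposite directions. Of the 9, 6 were higher in both lines, such as ITGB3 with 6.28, 17.9 and 51.8 CPM. These 6 include GP9, which had only 2, 2 and 5 counts. ITGA2B was lower in both, with 919, 476 and 607 CPM, as was GATA1, with 71.7, 64.2 and 66.0 CPM. None of the 7 tested passed an edgeR adjusted p under 0.01. Of 7 markers of other cell types, EPCAM had 49.3 to 74.9 CPM, and the sum of the other 6 was 4.43 CPM in the control, 10.3 in shRBM15#1 and 6.17 in shRBM15#2. CD3E stayed below 1 CPM in every library, and 4 of the 7 were higher in both lines than in the control. The share of all genes that were higher in both lines was not computed for comparison. The part that the markers and the bin share play in the values below was not tested.

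After RBM15 knockdown, the histone variant genes with the lowest values relative to the control were H1F0, H2AFY2, H1FX and H2AFY, while H2AFZ, H2AFV, H2AFX and both H3.3 genes were closer to it. None of the 9 passed the edgeR quasi-likelihood test at an adjusted p under 0.01, a limit that 0.346% of all 24887 tested genes passed. At an adjusted p under 0.05 the edgeR test called 1 of 9, H1F0, against 1.74% of all genes. At an unadjusted p under 0.05, 4 of 9 were lower and 0 higher, where 18.8% of all genes passed in either direction and 9.17% were lower. DESeq2 called 1 of 9 at an adjusted p under 0.01, again H1F0, where it called 2.11% of all genes, and it gave 4 of 9 an unadjusted p under 0.05, against 13.1% of all genes. The median log2 fold change was -0.28 over the 9 genes and 0.017 over all tested genes. Both lines were below the control in 6 of the 9 genes, as in 39.5% of all tested genes. In bulk RNA, fewer cells with a transcript and less of it per cell cannot be told apart.

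**Figure D1:**
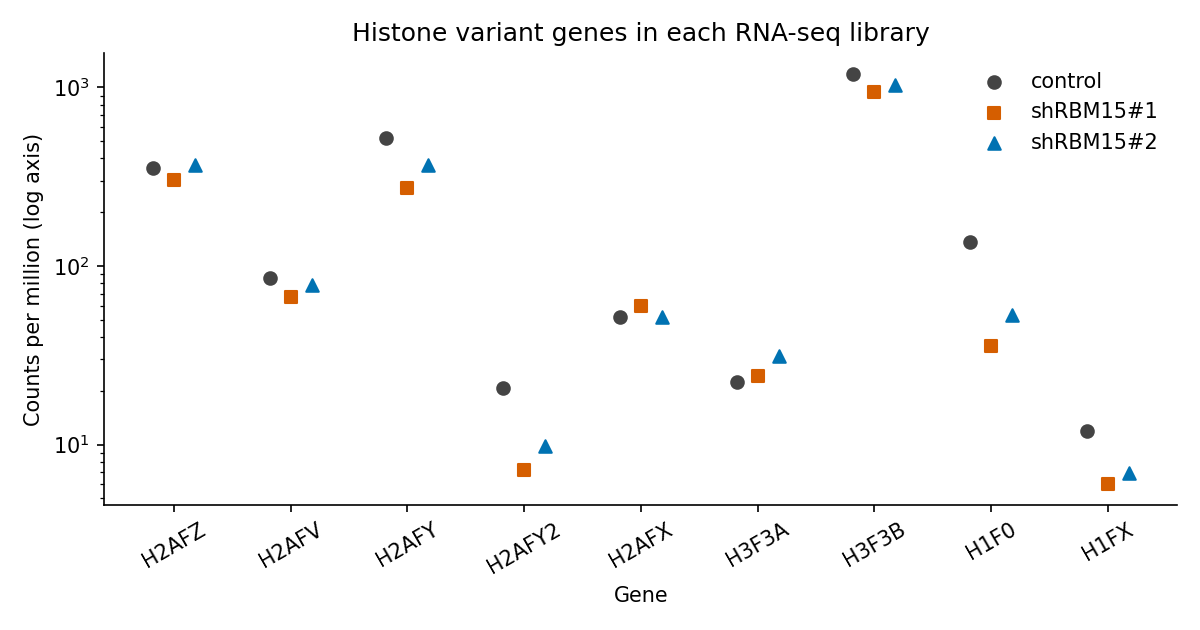
CPM (log axis) of the 9 histone variant genes in the control, shRBM15#1 and shRBM15#2 libraries, 1 point per library. H1F0 has 136 CPM in the control against 35.7 and 52.8 in the lines, while the H2AFZ points lie between 303 and 366.

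H1F0 (ENSG00000189060, chr22:38201114-38203442, plus strand), a single-bin gene that encodes H1.0, had 136 CPM in the control, 35.7 in shRBM15#1 and 52.8 in shRBM15#2. Both lines lay far below the control, and shRBM15#1 was the lower. The knockdown lines held 0.326 times the control level, a log2 fold change of -1.62 ± 0.27 (SE, 1 control against 2 knockdown libraries; edgeR adjusted p = 0.024, DESeq2 adjusted p = 0.000342). Of all tested genes, 1.45% had a lower fold change and 0.868% a smaller p. Its only bin lay under no other gene and held no repeated 31-base window.

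H1FX (ENSG00000184897, chr3:129033615-129035120, minus strand), also of 1 bin, encodes H1.X and had 11.9, 5.99 and 6.90 CPM in the control, shRBM15#1 and shRBM15#2. Both lines were again below the control. Its log2 fold change of -0.89 ± 0.32 (SE) did not pass the edgeR test (adjusted p = 0.196). Bases that its bin shares with the antisense gene H1-10-AS1 numbered 345 of 1506, so that its level is understated in every library. Its GC content was 68.7%, and after a trend of the fold changes of all genes with length, expression and GC content was removed, the value was -0.28.

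The replication-dependent linker histone genes, given for comparison, lay on the same side. Of 6 genes, HIST1H1A and HIST1H1T had too few counts, and HIST1H1B, HIST1H1C, HIST1H1D and HIST1H1E were tested. None of these 4 was called at an adjusted p under 0.01, and all 4 had an unadjusted p under 0.05 and a negative fold change, with a median of -0.94. Of all tested genes, 9.17% were lower at that unadjusted limit. HIST1H1D had 65.0 CPM in the control against 28.8 in shRBM15#1 and 30.6 in shRBM15#2 (log2 fold change -1.13 ± 0.23, edgeR adjusted p = 0.055). HIST1H1E had 215, 112 and 100.5 CPM (-1.02 ± 0.22, adjusted p = 0.059). With the trend removed, these values were -0.26 and -0.068.

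H2AFY (ENSG00000113648, chr5:134669590-134735604, minus strand) encodes macroH2A1 and had 522 CPM in the control, 272 in shRBM15#1 and 366 in shRBM15#2. Both lines were lower than the control, and shRBM15#2 lay between the other libraries. The log2 fold change was -0.71 ± 0.25 (SE), which did not pass the edgeR test (unadjusted p = 0.018, adjusted p = 0.185). With shRBM15#1 left out, the fold change was -0.46, and with shRBM15#2 left out it was -0.88.

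H2AFY2 (ENSG00000099284, chr10:71812552-71872036, plus strand), which encodes macroH2A2, was far less abundant, with 20.7, 7.19 and 9.87 CPM in the control, shRBM15#1 and shRBM15#2. The counts behind these values were 1023, 322 and 515. Both lines were below the control, at 0.413 times its level in the fit. The log2 fold change of -1.28 ± 0.31 (SE) had an unadjusted p of 0.0029 and an adjusted p of 0.091 in edgeR and an adjusted p of 0.028 in DESeq2. No 31-base window of its bins occurs elsewhere in the genome.

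**Figure D2:**
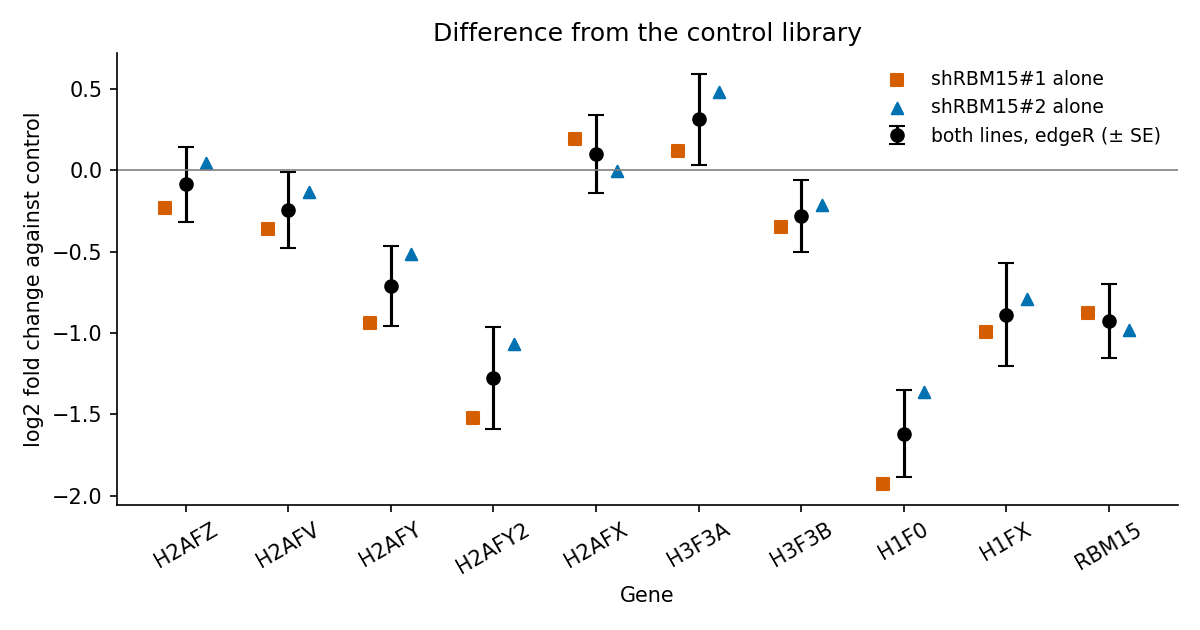
Log2 fold change against the control of the 9 histone variant genes and RBM15, fitted with both knockdown lines (black, ± SE) and for each line alone (coloured). For H1F0, H2AFY2, H1FX and H2AFY both lines lie below 0, and for H2AFZ the lines lie on either side of 0, at -0.23 and 0.042.

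For the H2A.Z genes the libraries lay close together. H2AFZ (ENSG00000164032, chr4:100869243-100871545, minus strand) had 356 CPM in the control, 303 in shRBM15#1 and 366 in shRBM15#2, so the control lay between the lines. Its log2 fold change was -0.088 ± 0.23 (SE; edgeR adjusted p = 0.879). H2AFV (ENSG00000105968, chr7:44866390-44887682, minus strand), which encodes the second H2A.Z protein, had 86.0, 66.9 and 78.4 CPM and a log2 fold change of -0.24 ± 0.23 (adjusted p = 0.612). Windows of 31 bases that occur more than once in the genome made up 14.3% of those in the H2AFZ bins and 10.6% of those in the H2AFV bins, and the counts of both genes are uncertain. Bins of at least 31 bases with no repeated window held only 2174 of the 17593 control counts of H2AFZ and 542 of the 4256 of H2AFV.

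Of 13 genes for H2A.Z deposition and removal, all were tested and none was called at an adjusted p under 0.01. At an unadjusted p under 0.05, 1 was lower and 0 higher, and the median log2 fold change was -0.27. EP400, the motor subunit of an H2A.Z-exchanging complex, had 35.6, 20.0 and 14.0 CPM in the control, shRBM15#1 and shRBM15#2 (log2 fold change -1.07 ± 0.29, unadjusted p = 0.0056, edgeR adjusted p = 0.118). SRCAP, the motor of the related complex, had 54.8, 44.3 and 33.0 CPM (-0.51 ± 0.26, adjusted p = 0.337). Neither passed the test, although both lines were below the control for each.

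H2AFX (ENSG00000188486, chr11:118964564-118966177, minus strand) had 51.9 CPM in the control, 59.3 in shRBM15#1 and 51.8 in shRBM15#2, a log2 fold change of 0.099 ± 0.24 (SE; edgeR adjusted p = 0.865), with a direction that changes with the processing. The libraries overlapped, with shRBM15#2 at the level of the control. Its GC content of 66.4% was close to that of H1FX, and with the trend removed the value was 0.70. Of 8 genes for the phosphorylation of H2A.X and its readers, none was called at an adjusted p under 0.01, and at an unadjusted p under 0.05 there was 1 lower and 1 higher, with a median of -0.014. MDC1, which binds phosphorylated H2A.X, had 47.9, 21.1 and 21.8 CPM (-1.16 ± 0.24, adjusted p = 0.057). RNF8, a ubiquitin ligase recruited by MDC1, had 33.6, 51.0 and 73.2 CPM (0.89 ± 0.29, adjusted p = 0.168).

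H3F3B (ENSG00000132475, chr17:73772515-73781974, minus strand) held the most counts of the 9 genes, with 1195 CPM in the control, 938 in shRBM15#1 and 1030.2 in shRBM15#2. Both lines were below the control, and the log2 fold change of -0.28 ± 0.22 (SE) did not pass (edgeR adjusted p = 0.528). Windows of 31 bases that occur more than once in the genome made up 8.01% of those in the H3F3B bins. Bins of at least 31 bases with no repeated window held only 5893 of its 59125 control counts, so its counts are uncertain too. In those bins the mean of the lines differed from the control by -0.36 on the log2 scale. H3F3A (ENSG00000163041, chr1:226249552-226259702, plus strand) encodes the same protein and had 22.4, 24.3 and 31.2 CPM, with a log2 fold change of 0.31 ± 0.28 (adjusted p = 0.593). It was the one member with both lines above the control. This value is uncertain, since every 31-base window of its bins 4, 6, 7, 9 and 10 occurs more than once in the genome. Bins 6 and 7 held 13 to 41 counts per library, while bins 9 and 10 held 475 to 713. In the 4 bins with no repeated window, H3F3A had 98, 70 and 123 counts, and the mean of the lines differed from the control by -0.015 on the log2 scale, so the direction depends on which bins are read.

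Of 9 genes for H3.3 deposition, none was called at an adjusted p under 0.01 and none had an unadjusted p under 0.05 in edgeR, and the median was -0.050. UBN2, a subunit of the HIRA complex, had 28.0, 19.2 and 18.8 CPM (-0.56 ± 0.26, adjusted p = 0.290). DAXX, the H3.3 chaperone that works with ATRX, had 78.0, 97.8 and 127 CPM (0.53 ± 0.25, adjusted p = 0.302). Among 8 other histone variant genes, 5 were matched and 3 tested, none had an unadjusted p under 0.05, and the median was -0.38. CENPA, the centromeric H3 variant, had 29.5, 20.2 and 22.3 CPM (-0.47 ± 0.26, adjusted p = 0.361), and -0.20 with the trend removed. H2AFJ held 7, 22 and 7 counts, close to the limit for testing (1.11 ± 1.09, adjusted p = 0.622), and its value was -0.26 with the trend removed.

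Levels can be compared between genes only per length, here as CPM per kb over bins of at least 100 bases in exons of coding transcripts, leaving out bins shared with another gene where others remained. By this measure H2AFZ was highest, with 329 to 393 over the 3 libraries. H3F3B at 133 to 167 and H2AFY at 83.7 to 162 came next, and their ranges overlapped. H2AFX at 32.5 to 37.3 lay within the range of H1F0, 15.3 to 58.3. H2AFV followed at 12.1 to 15.6, a range that overlapped that of H2AFY2, 4.75 to 13.6. H2AFY2 in turn overlapped H3F3A at 7.30 to 10.2 and H1FX at 3.98 to 7.92. The last 2 levels are uncertain and may be understated. Bins 6, 7, 9 and 10 of H3F3A hold only repeated windows, and the H1FX bin shares 345 of its 1506 bases with another gene. The levels of H2AFZ, H2AFV and H3F3B are uncertain as well, since bins used for them hold repeated windows. These made up 53.2% of the windows in bin 9 of H2AFZ, 50.2% in bin 5 of H2AFV and 38.1% in a bin of H3F3B. The order depends on annotated lengths: in the bin with the most counts per base, H3F3B had a mean of 617 and H2AFZ one of 473.

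Exon usage asks whether a bin changed relative to the rest of its gene. In edgeR's diffSpliceDGE, 123 bins of 7 of the genes were tested, since H1F0 and H1FX have a single bin. None of these bins had an unadjusted p under 0.05 together with a fold above 1.2, limits that 1.4% of all 234192 tested bins passed. At an adjusted p under 0.05 the count was also 0, against 0.0205% of all bins. The smallest unadjusted p among the 123 bins was 0.086, for a bin of H3F3B with a relative log2 fold change of 0.81. In H2AFY the relative log2 fold changes of 43 bins ran from -0.92 to 1.19, and the ends of that range were bins with at most 29 counts in a library, bin 47 at the 5′ end (29, 11 and 7 counts) and bin 1 at the 3′ end (9, 7 and 18). The adjoining bins 44 to 48 were all below 0, and bin 44 had 137, 50 and 63 counts and a value of -0.53 (diffSpliceDGE unadjusted p = 0.126). These bins are short, and a read over several of them is counted in each.

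**Figure D3:**
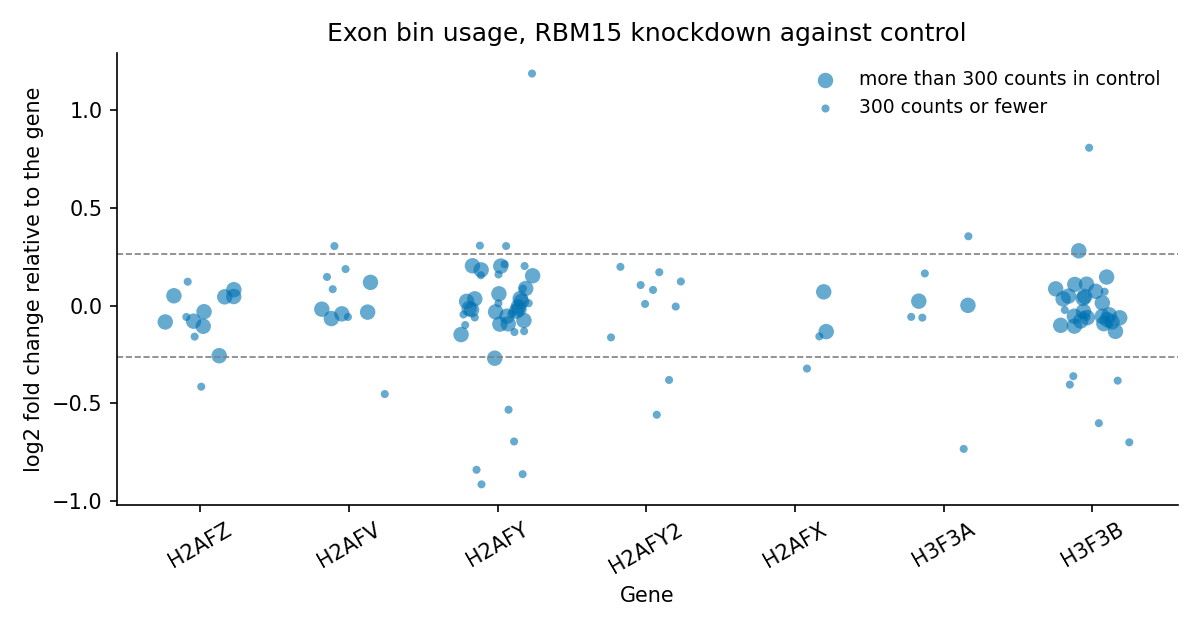
Log2 fold change of each of the 123 tested exon bins relative to its gene, RBM15 knockdown against control, with 1 point per bin, large where the control had more than 300 counts. Dashed lines mark a fold of 1.2, and the points far beyond them, such as the H2AFY bin at 1.19, have few counts.

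The mutually exclusive exons of H2AFY could be compared only in part. The macroH2A1.2 exon, bin 22, had 1039 counts in the control, 454 in shRBM15#1 and 724 in shRBM15#2. Relative to H2AFY as a whole the log2 fold change was -0.094 (diffSpliceDGE unadjusted p = 0.728). Set against bin 30, an upstream coding exon with 1484, 664 and 1110 counts, the macroH2A1.2 exon had 70.0%, 68.4% and 65.2% as many. Bin 15, a downstream coding exon, had 554, 228 and 402 counts. Relative to bin 15, the macroH2A1.2 exon was higher in shRBM15#1 than in the control and lower in shRBM15#2. The direction in shRBM15#1 therefore depends on the exon chosen as reference.

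The macroH2A1.1 exon, bins 18 and 19, had 0 counts in all 3 libraries. All 91 of its bases lie inside an exon bin of the antisense gene PITX1-AS1 (chr5:134685864-134686612), and the libraries carry no strand information. Across all genes with at least 1000 counts, all 3225 bins of at least 50 bases that lie wholly under bins of another gene had no count in any of the 3 libraries, against 1015 of 196830 bins (0.516%) with no base under another gene. The coding exon of bin 11 of H2AFY (chr5:134678950-134679124), which also lies wholly under PITX1-AS1, had 0 counts in every library as well, between bins 10 and 15 with 176 to 554. In all, 9 of the 56 bins of H2AFY lay wholly under another gene and 9 of these had no count. The share of the macroH2A1.1 exon, 0% in each library (exact Clopper-Pearson 95% upper limits 0.354%, 0.809% and 0.508%, for counting error only), therefore describes the counting and sets no limit on macroH2A1.1 in these cells.

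**Figure D4:**
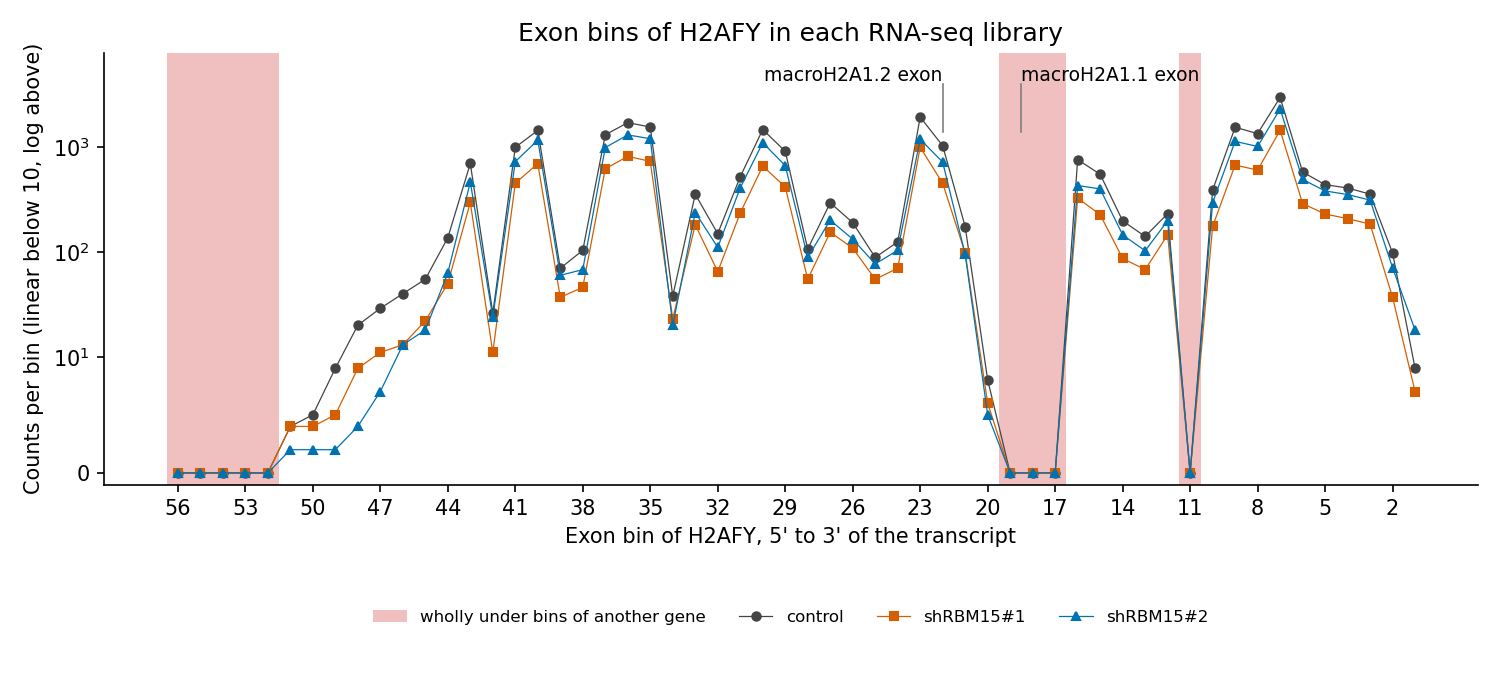
Counts in the 56 exon bins of H2AFY, ordered 5′ to 3′ along the transcript, in the 3 RNA-seq libraries (axis linear below 10 and logarithmic above), with bins that lie wholly under bins of another gene shaded. The shaded bins, the macroH2A1.1 exon among them, are at 0 in every library, and the macroH2A1.2 exon has 454 to 1039 counts.

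None of the 4 regulators of H2AFY exon choice listed was called at an adjusted p under 0.01, and at an unadjusted p under 0.05 there was 1 lower and 0 higher, with a median of -0.33. QKI, an RNA-binding protein that favours the macroH2A1.1 exon, had 147, 97.4 and 104 CPM in the control, shRBM15#1 and shRBM15#2 (log2 fold change -0.55 ± 0.22, unadjusted p = 0.034, edgeR adjusted p = 0.233). DDX17, a helicase that acts with DDX5 on this exon pair, had 468, 323 and 375 CPM (-0.42 ± 0.22, adjusted p = 0.344). Both lines were below the control for both genes.

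Some bins, such as those over introns kept in non-coding transcripts, belong to no coding transcript, and their share of a gene's counts was compared as a description. In H2AFY they held 17.9% of the counts in the control (exact 95% interval 17.5% to 18.4%, counting error only), 19.3% (18.6% to 20.0%) in shRBM15#1 and 15.9% (15.4% to 16.4%) in shRBM15#2. The lines thus lay on either side of the control. The intervals take bin counts as independent, but a read over several bins is counted in each, so they are too narrow even for counting error. The shares also depend on how the annotation cuts the exons into bins. In H2AFZ the shares were 7.86%, 7.22% and 7.24%, and in H3F3B 1.76%, 1.61% and 1.58%, lower in both lines. Among 8697 genes with such bins the medians were 3.11%, 3.43% and 3.06%, and 34.4% of the genes were lower in both lines. Bin 11 of H2AFZ, which spans the intron at chr4:100870544-100870819, had 357, 234 and 319 counts and a relative log2 fold change of -0.26 (diffSpliceDGE unadjusted p = 0.340).

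The RIP-seq table holds 1515 sites, which the authors kept as significant with more reads on the RBM15 side, and 4 of them carry the symbol of a histone variant gene: 2 in H2AFY, 1 in H2AFZ and 1 in H2AFV. 1 further site, without a symbol or strand in the table, overlaps the last exon of H3F3A. Motif matches in the sites are printed to place them in the transcripts. The motifs searched on the strand of the site were GGACT, a form of the m6A consensus, and TTTTT, a run of T, and their letters are in capitals (GRCh37, DNA letters of the RNA strand).
H2AFY intron, chr5:134686164-134686192, minus strand: atacaggcacatGGACTgagtgacaacca
H2AFZ 3′UTR, chr4:100869566-100869594, minus strand: tcaGGACTctaaatactctaacagctgtc
H2AFY 3′UTR, chr5:134670496-134670524, minus strand: ccagtttaattgTTTTTgaccttctaaaa
H2AFV, chr7:44874004-44874032, minus strand: ggatatgtggaaTTTTTaacaacagttaa
H3F3A, chr1:226259259-226259287, plus strand read: gaacgttagataTTTTTtttccatggggt
GGACT was found in 2 of the 5 sites and in 15.1% of the 1195 sites of 235 to 507 bases, the widths these 5 span, and TTTTT in 4 of 5 and 37.5%. For 228 of the 1515 sites, which have no strand, the plus strand was read. A match describes the letters and shows no binding.

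The H2AFY 3′UTR site (chr5:134670153-134670659) had 124 reads with normal IgG and 2852 with anti-RBM15, the 31st highest count of the 1515 sites. The exact Poisson 95% intervals, for counting error only, were 103 to 148 and 2748 to 2959. The H2AFZ 3′UTR site (chr4:100869282-100869594) had 43 reads (31.1 to 57.9) with IgG and 1162 (1096 to 1231) with anti-RBM15. The H2AFV site (chr7:44873855-44874117), annotated to both a 3′UTR and an intron, had 7 (2.81 to 14.4) and 327 (293 to 364). The site on H3F3A (chr1:226259140-226259374) had 7 and 195 reads, and it lies in bins 9 and 10, whose windows are all repeated in the genome. The H2AFZ site lies in bins 3 and 4, where 100% and 43.8% of the windows of the bin are repeated. In bin 5 of H2AFV, which its site overlaps, 50.2% are repeated. The reads in these sites are uncertain for the same reason. The ratios of anti-RBM15 to IgG reads ran from 17.4 to 46.7 over the 5 sites, and the median over the 1463 sites with an IgG read was 31.3. The sites were selected on this difference, the depth of the libraries is unknown and there is 1 library per antibody, so no test was made.

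The intronic H2AFY site (chr5:134685873-134686194) had 31 reads (21.1 to 44.0) with IgG and 539 (494 to 586) with anti-RBM15, a ratio of 17.4. It begins 318 bases downstream of the macroH2A1.1 exon, in the intron that follows it. It overlaps no exon bin of H2AFY and lies inside the same PITX1-AS1 bin as that exon. The RIP-seq libraries are stranded, and the site is given on the strand of H2AFY. The authors annotated each peak by the RefSeq transcript it overlaps, and whether the strand comes from the reads is not stated. It therefore does not tell H2AFY from the antisense gene. This PITX1-AS1 bin held 228 counts in the control RNA-seq library, 101 in shRBM15#1 and 127 in shRBM15#2. The RNA-seq carries no strand information, so these counts may come from PITX1-AS1 or from intronic RNA of H2AFY.

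**Figure D5:**
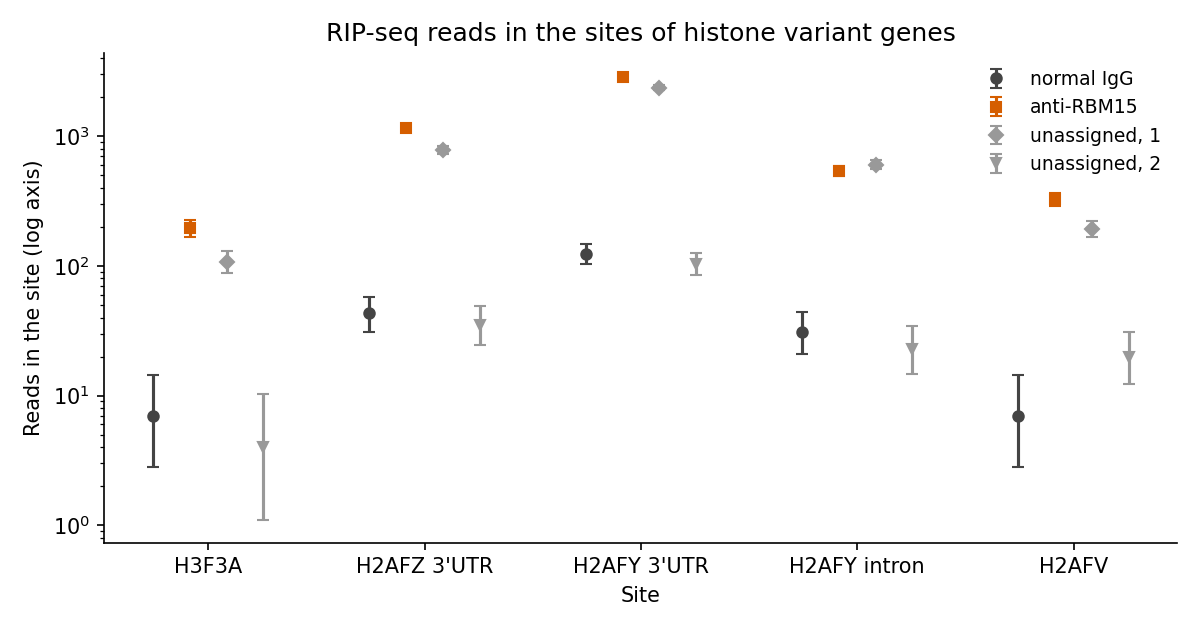
Reads (log axis) in the 5 RIP-seq sites of histone variant genes, in the normal IgG library, the anti-RBM15 library and the 2 libraries assigned to no condition, with exact Poisson 95% intervals. In every site the anti-RBM15 count, 195 to 2852, lies above the IgG count, 7 to 124, as the sites were selected to do.

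By overlap, 4 of the 9 genes held a site, against 9.71% of the 10211 tested genes with at least 1000 counts and 17.9% of those with at least 10000. Only 5 of the 9 genes had at least 10000 counts, so the share of 17.9% is for a different set. The 4 genes with a site differ in level, and H3F3A, with the fewest counts among them, was below 10000. The member with the lowest fold change, H1F0, held no site, nor did H2AFY2 or H1FX. No bin within 1 kb of a site passed the limits on exon usage. In H2AFY bin 7, which holds most of the 3′UTR site, the counts were 3006, 1462 and 2332 and the relative log2 fold change was 0.060 (diffSpliceDGE unadjusted p = 0.828). In H2AFZ bin 4, over the 3′UTR site, they were 5370, 4317 and 5958, with a relative log2 fold change of 0.046 (diffSpliceDGE unadjusted p = 0.864). In H2AFV bin 5 they were 1130, 780 and 1047, with a relative log2 fold change of -0.043 (diffSpliceDGE unadjusted p = 0.870).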

How the data were processed

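RNA-seq counts and RIP-seq site counts of MEG-01 cells were used. The authors mapped the paired-end, unstranded RNA-seq reads with STAR (GRCh37) and deposited raw counts for each exon bin of the Ensembl GRCh37.70 models. HTSeq 0.6.0 is in the submitters' processing notes. The authors' DEXSeq table was read for bin positions (809 wrapped lines of 625957 left out), and its fold changes and p-values were not used. For the RIP-seq, the authors aligned reads to hg19 with STAR, called peaks on all samples and deposited counts of 4 libraries for 1515 significant sites, and fold changes and p-values were not used. In 2 RIP-seq libraries the antibody label and the authors' comparison conflict, and these were left unassigned.

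Bin counts were summed per gene, so that a read over several bins is counted in each. Lines naming no bin (23.2% to 32.0% of counts) were left out. Genes that reached a summed count of 30 were tested with edgeR 4.0.16 (TMM, quasi-likelihood, Benjamini-Hochberg) in R 4.3.3, bins with diffSpliceDGE, and DESeq2 1.42.0 served as an alternative. The 2 knockdown lines give the spread, the control has no replicate, and p-values do not cover variation between control cultures. Both fits were tested on simulated data. Repeated 31-base windows were counted in GRCh37. Levels with intervals used Python 3.11.15 and scipy 1.17.1. Named were all 9 genes, RBM15, from each of 6 lists every gene called and the 2 largest changes among tested genes, the exclusive exons of H2AFY, bins past the limits, and bins within 1 kb of a site. For each gene called at an adjusted p under 0.01 the nearest profiles were to be named, and there was none. HIST1H1A, HIST1H1B, HIST1H1C and HIST1H1T, the H3F3B bin with the smallest p, and bins 11, 15, 30 and 44 to 48 of H2AFY and 4, 6 and 7 of H3F3A were named outside this rule, after their values were seen. The genes and lists were chosen with earlier results of these data known. Symbols come from a newer GENCODE annotation lifted to GRCh37, and older symbols from RefSeq synonyms. Some cell type markers are not reported here.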

Additional observations from a re-analysis of the deposited data

Results flagged for a closer look

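An unassigned RIP-seq library had more reads in the sites of histone variant genes than normal IgG, beyond the exact Poisson 95% intervals of both. This held for the library as a whole, with 610915 reads over all 1515 sites (median 198) against 28387 (median 8) for IgG. Its label names normal IgG, and the authors' comparison placed it with the anti-RBM15 libraries. The sites were kept for more reads on the RBM15 side of that comparison, so an excess over IgG was built into the selection. It had 2376 reads in the H2AFY 3′UTR site, 604 in the H2AFY intron site, 786 in the H2AFZ site, 193 in the H2AFV site and 108 in the H3F3A site. The IgG library had 124, 31, 43, 7 and 7 reads. The depth of these libraries is unknown. The other unassigned library, labelled anti-RBM15, had 104, 23, 35, 20 and 4 reads, and its interval overlapped that of IgG in each site. The 20 reads in the H2AFV site lay above the IgG interval of 2.81 to 14.4.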

How the results depend on the processing

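The number of the 9 genes called at an adjusted p under 0.01 was 0 and stayed 0 with size factors and with the largest bin of each gene, a setting chosen after seeing the data, as was the use of unrepeated bins. It was 1 with DESeq2 and 2 with no filter (H1F0 and H2AFY2). Among the listed genes 0 were called, and 3 with no filter. Without the filter the median of all genes moved to a log2 fold change of 0.44. Over all genes, 86 were called in the main analysis (17 higher), 191 with size factors (53 higher), 801 with no filter (275 higher), 525 with DESeq2 (197 higher) and 0 with the largest bin. Called bins numbered 3278 of all, 8628 at a minimum count of 1 and 698 at 300, and 0 in the 9 genes throughout. Directions turned for H2AFZ with the largest bin (0.083), with the trend removed (0.049) and without shRBM15#1 (0.093), for H2AFX with no filter (-0.036) and in unrepeated bins (-0.039), for H3F3A in unrepeated bins (-0.015), for H2AFJ with the trend removed (-0.26) and for bin 9 of H3F3A at a minimum of 300 (-0.0099). With a knockdown line left out they also turned for that bin, for bins 8, 10 and 21 of H2AFY and for bin 4 of H2AFV. With the trend removed, H1FX was at -0.28 and H2AFX at 0.70. Leaving out a knockdown line gave -1.87 to -1.31 for H1F0, -1.46 to -1.02 for H2AFY2, -0.93 to -0.74 for H1FX and -0.17 to 0.093 for H2AFZ, with no test. The macroH2A1.1 share was 0 under each alternative, an outcome that the counting of shared bins fixed in advance. Taking sites by overlap gave 5 in place of 4. The cause of these differences was not tested. No paired analysis was possible because the control has a single library and shares no labelled replicate numbers with the knockdown lines.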
